A study of Mus musculus with 24 samples.

Results

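The 27 genes described here encode receptors for the inhibitory transmitter GABA, proteins that hold those receptors at the postsynaptic side of inhibitory synapses, and proteins that take up or break down GABA. They were taken from a list of names: 4 alpha, 2 beta and 5 gamma, delta, epsilon and theta subunits of the GABA-A receptor, 2 subunits of the GABA-B receptor, 8 scaffold and adhesion proteins, dystrophin and dystroglycan, and 4 genes of GABA uptake and breakdown. All 27 were found among the 55417 rows of the count table, and all 27 passed the filter on low counts that left 16767 genes for testing. Of other subunits in these receptor families, the rho and pi subunits Gabrr1, Gabrr2, Gabrr3 and Gabrp were looked up and did not pass this filter. The rest were not analysed here.

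RNA sequencing was done on bulk tissue from subdissected entorhinal cortex, the cortical area that links the neocortex with the hippocampus, in 24 libraries from adult mice of 2 to 4 months. Every mouse carried both transgenes of the cross Nop-tTA Line S x TRE-GlyCl-YFP Line 9531, with the genotype tg/tg. Nop-tTA drives a tetracycline-controlled activator from the neuropsin promoter, and the activator turns on GlyCl, an engineered chloride channel used to silence neurons, fused to a yellow fluorescent protein. The vehicle group (label Veh) held 4 females and 2 males. The 3 groups collected 1, 2 and 3 days after the channel was activated (1DPI, 2DPI and 3DPI) held 3 females and 3 males each. The labels name neither the activating agent nor when the vehicle animals were killed, and the groups hold no animals without the transgenes. Cells that lack the channel are part of the same tissue, and in bulk tissue fewer cells of a type and less RNA per cell cannot be told apart.

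GABA opens GABA-A receptors, which are chloride channels assembled from several subunits whose combination sets where the receptor sits and how it responds. Many receptors with a gamma subunit gather at synapses, where gephyrin and its partners anchor them. Receptors with the delta subunit sit outside synapses and carry a steady tonic current. GABA-B receptors act through G proteins on potassium and calcium channels. Transporters in neurons, astrocytes and the meninges clear GABA, and mitochondrial enzymes degrade it. The comparison of each day with vehicle asks whether the RNA of this inhibitory machinery differed after neurons were silenced through a foreign chloride channel.

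The libraries held between 16621659 and 23667449 counts, and the sex read from the RNA matched the label in 24 of 24. Entorhinal markers were present in every library: Reln at 116 to 168 CPM (the gene's count scaled to the size and composition of its library), Calb1 at 131 to 174 and Wfs1 at 178 to 270, whereas Klk8, the neuropsin gene, lay at 1.12 to 2.77 CPM. In 8 libraries, 1 of vehicle, 2 of day 1, 2 of day 2 and 3 of day 3, the choroid plexus transcript Ttr was at 562 to 1170 CPM, against 8.37 to 25.9 CPM in the other 16. The astrocyte gene Gfap (log2 fold change 0.51 ± 0.08, SE, on day 2 and 1.12 ± 0.08 on day 3) and the microglial gene Cx3cr1 (0.26 ± 0.06 on day 3) were higher than in vehicle, with edgeR adjusted p-values of 0.00116 and 1.77e-10 for Gfap and 0.0412 for Cx3cr1. Gfap was the only 1 of 8 astrocyte markers called on these days. Of the 8, 2 lay above 0 on day 2 (median log2 fold change -0.05) and 3 on day 3 (-0.04). All 6 microglial markers lay above 0 on day 3, with a median of 0.14.

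None of the 27 genes passed the test on any day (edgeR quasi-likelihood test, adjusted p under 0.05, n = 6 per group, 2-sided). The background share of all genes called was 0.0656% on day 1, 0.0656% on day 2 and 0.614% on day 3, so a count of 0 is near that background. At an unadjusted p under 0.05 the test gave 3 members on day 1, 0 on day 2 and 0 on day 3, beside 7.25%, 5.2% and 5.64% of all genes. The 3 members make 11.1% of the list. DESeq2 also called 0 members on each day, beside 0.437%, 0.107% and 0.751% of all genes on days 1, 2 and 3. With limma voom 0 members were called on each day, beside 0.0656%, 0.0417% and 0.555% of all genes. The smallest adjusted p of a member was 0.341 on day 1, 0.956 on day 2 and 0.959 on day 3. For no member did the CPM ranges of a day and vehicle lie apart, as they did for 0.596%, 0.328% and 0.662% of all genes on days 1, 2 and 3.

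How large a change the data leave room for can be read from the intervals. The 95% interval of the fold change lay within 1.2-fold either way for 22 of the 27 genes on day 1, 22 on day 2 and 23 on day 3, as it did for 53.8%, 54.8% and 56.1% of all genes. It lay within 1.5-fold for 25, 25 and 26 genes, beside 80.1%, 80.2% and 79.5% of all genes. The median log2 fold change of the members was -0.01, 0.00 and -0.02, beside 0.00, 0.00 and -0.00 over all genes. The interval reached past 1.2-fold for Gabra2, Gabre, Gabrq and Slc6a13 on all 3 days, and for Gabrd on days 1 and 2.

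**Figure D1:**
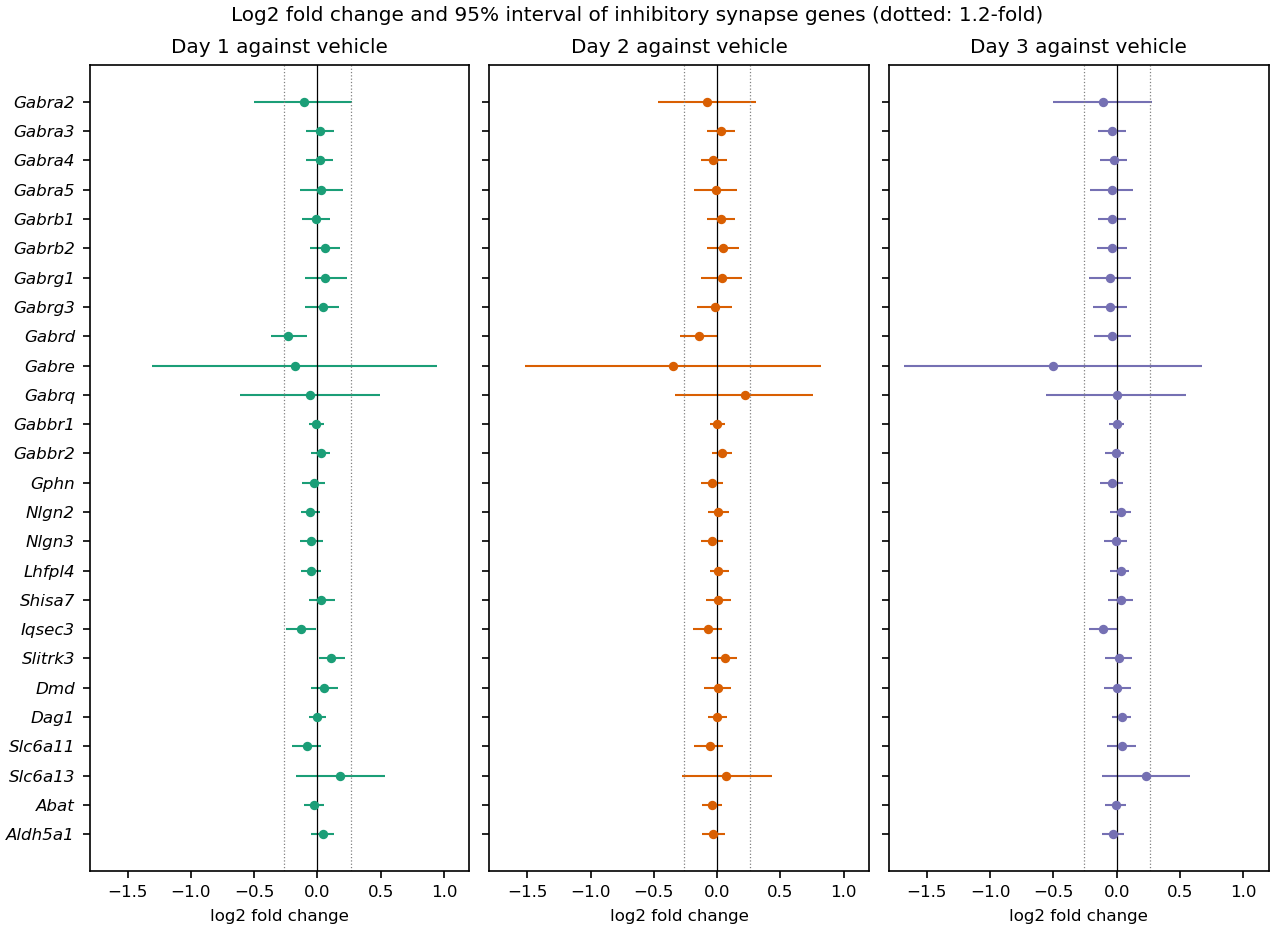
Log2 fold change against vehicle (x axis, points) with its 95% interval (bars) for the genes described (rows) on days 1, 2 and 3 (panels), with dotted lines at 1.2-fold. Most intervals sit between the dotted lines and cover 0, Gabrd on day 1 lies to the left at -0.23, and Gabre has the widest bars.

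Levels of different genes were compared as CPM per kilobase of merged exons. In vehicle the GABA-B subunits led, with a median of 103 for Gabbr1 and 75.3 for Gabbr2, followed by the inhibitory adhesion protein Nlgn2 at 73.0. Gabbr1 lay above Gabbr2 in range (101 to 105 against 71.9 to 80.4), while Gabbr2 and Nlgn2 overlapped (69.9 to 74.9 for Nlgn2). Among the alpha subunits Gabra3 stood apart at a median of 41.4, with its lowest vehicle library at 39.2. Gabra4 (17.1) and Gabra5 (17) overlapped. Gabra2 (11.7) ran from 9.75 to 22 and overlapped both only through vehicle library 3, at 168 CPM where the next was at 96.1. Its other vehicle libraries lay below the lowest of Gabra4 (16.1) and Gabra5 (15.8). Gabrb2 (26) lay above Gabrb1 (12.8) without overlap. In CPM the order was reversed, with Gabrb1 at a median of 178 (172 to 195) and Gabrb2 at 165 (141 to 171). Their merged exons span 13838 bases for Gabrb1 and 6360 for Gabrb2, so the order depends on the length used.

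The subunits that join alpha and beta pairs covered the widest span. Gabrd had a median of 18.6 CPM per kilobase in vehicle, Gabrg1 3.59 and Gabrg3 2.42, and their ranges did not overlap. Gabrq and Gabre, 2 X-linked subunits, lay at 0.401 and 0.0780. Among the postsynaptic proteins medians below that of Nlgn2 were those of Lhfpl4 (29.7), Shisa7 (26.7), Iqsec3 (19.2), Gphn (16.0), Slitrk3 (14.4) and Nlgn3 (6.29). Abat (41.0) and Slc6a11 (33.9) were the most abundant genes of GABA clearance per length, above Aldh5a1 (14.1) and Slc6a13 (5.23). The length counts the exons of every annotated isoform, which lowers the value of a gene with many isoforms such as Dmd (2.92). For Nlgn3, 41.2% of the exon bases are shared with another annotated transcript on the same strand, so its level is uncertain.

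**Figure D2:**
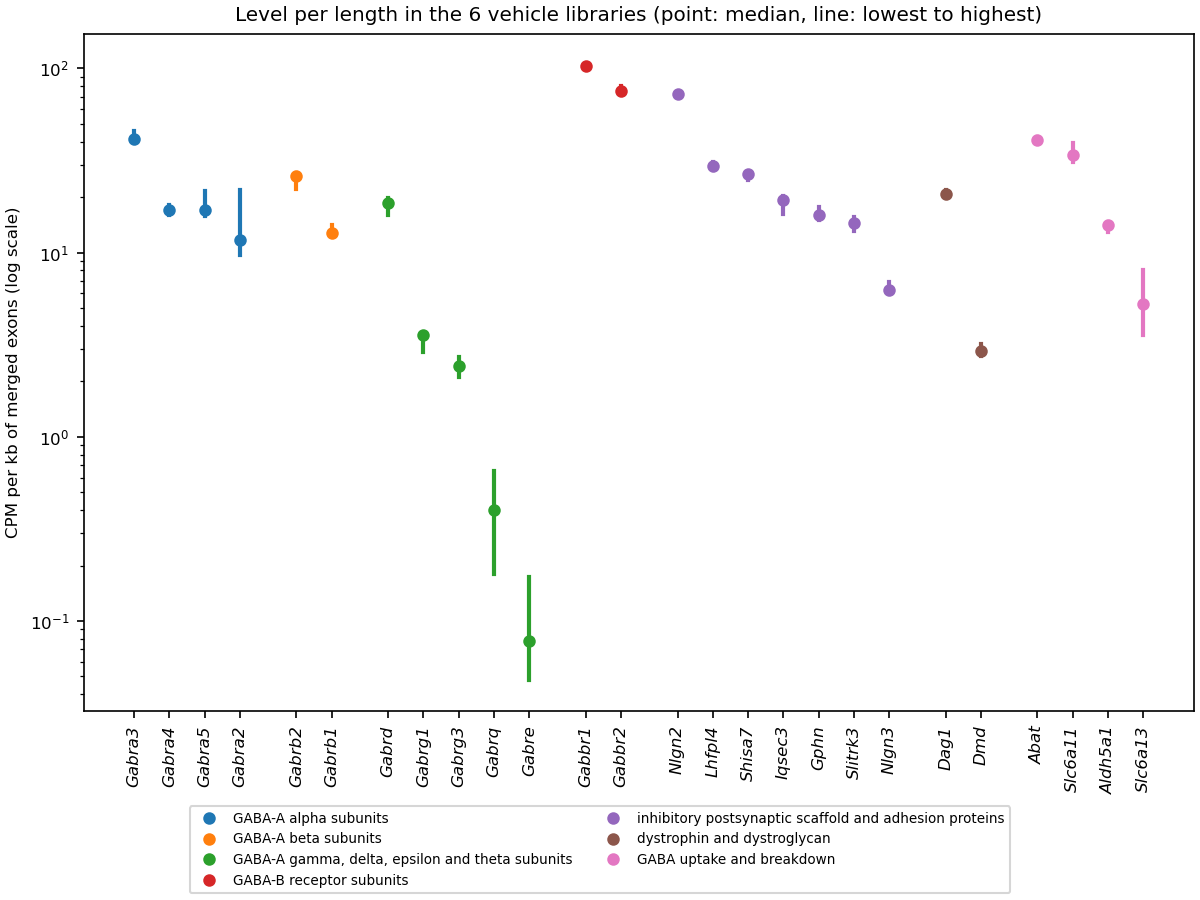
Level in CPM per kilobase of merged exons (y axis, log scale) of the genes described in the 6 vehicle libraries, coloured by role, with the median as a point and the line from the lowest to the highest library. Gabbr1, Gabbr2 and Nlgn2 form the top at 103, 75.3 and 73.0, and Gabre lies lowest at 0.0780.

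The alpha subunits carry, with their neighbours, the sites for GABA and for benzodiazepines. Gabra3, an X-linked alpha subunit, ran from 154 to 179 CPM in vehicle (median 163), 153 to 174 on day 1 (168), 151 to 190 on day 2 (166) and 153 to 182 on day 3 (157). Gabra4, which often pairs with delta outside synapses, ran from 97.7 to 110 in vehicle (104), 97.7 to 113 on day 1 (106), 96.4 to 111 on day 2 (100) and 91.3 to 113 on day 3 (104). Gabra5, found mostly in extrasynaptic receptors of hippocampus and cortex, ran from 46.9 to 64.2 in vehicle (50.5), 43.1 to 59.2 on day 1 (56.7), 46.8 to 61.5 on day 2 (52.0) and 43.6 to 57.9 on day 3 (51.9). All 4 groups overlapped for each of these genes. The log2 fold change of Gabra3 on day 3 was -0.04 ± 0.05 (95% interval -0.15 to 0.07, adjusted p 0.999), and that of Gabra4 on day 2 was -0.03 ± 0.05 (-0.13 to 0.08, adjusted p 0.991). For Gabra5 the values were 0.03, -0.01 and -0.04, each ± 0.08.

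Gabra2 encodes an alpha subunit found at many cortical synapses, including those on the axon initial segment. Its level ran from 74.5 to 168 CPM in vehicle (median 89.1), 83.7 to 127 on day 1 (89.1), 72.9 to 164 on day 2 (86.7) and 79.2 to 161 on day 3 (82.9). In each group 1 library lay far above the other 5: 168 CPM against at most 96.1 in vehicle, 127 against 95 on day 1, 164 against 100 on day 2 and 161 against 87.4 on day 3. These 4 libraries carry consecutive animal labels, a9452 (day 1), a9453 (day 2), a9454 (day 3) and a9455 (vehicle), from 3 males and 1 female. They were picked out after their values were seen. The remaining 20 libraries held 72.9 to 100 CPM. The highest library exceeded the lowest 2.3-fold, and the coefficient of variation over 24 libraries was 28.7%, against 6.06% to 10.8% for the other 3 alpha genes.

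With 1 high library in every group, the means of Gabra2 stayed close and their errors wide. The log2 fold change was -0.11 ± 0.19 on day 1 (95% interval -0.50 to 0.27, adjusted p 0.954), -0.08 ± 0.19 on day 2 (-0.47 to 0.31, 0.993) and -0.11 ± 0.19 on day 3 (-0.50 to 0.28, 0.999). Without vehicle library 3 alone the values turned to 0.10, 0.13 and 0.10, so their sign was not stable. Over 35 alternative settings and left-out libraries, 2, 3 and 2 values had another sign on days 1, 2 and 3. Without all 4 libraries they were 0.04 ± 0.07, -0.03 ± 0.07 and -0.07 ± 0.07, with adjusted p-values of 0.93, 0.974 and 0.992. The standard error was thus smaller in the 20 libraries, and the gene still did not pass the test.

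Gabra2 lies in a cluster of subunit genes, in the order Gabrg1, Gabra2, Gabra4, Gabrb1 with an unrelated gene between Gabra2 and Gabra4, in the GENCODE annotation of GRCm38. In the same 4 libraries Gabrg1 was at 28.2 to 36.0 CPM, against 22.8 to 30.1 in the other 20, with overlap. Gabra4 was at 96.4 to 108 against 91.3 to 113, and Gabrb1 at 168 to 200 against 160 to 227. The high values were thus not shared by the 2 genes on the far side of the cluster. Outside the cluster, Gabra3 was at 153 to 190 CPM in the same libraries (median 180), against 151 to 180 in the other 20 (161), with overlap. Gabra5 was at 49.4 to 64.2 (53.8) against 43.1 to 61.5 (52.1). Inbred mouse strains are known to differ in Gabra2 level, but the labels give no background strain for each animal, and its part in these values was not tested.

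**Figure D3:**
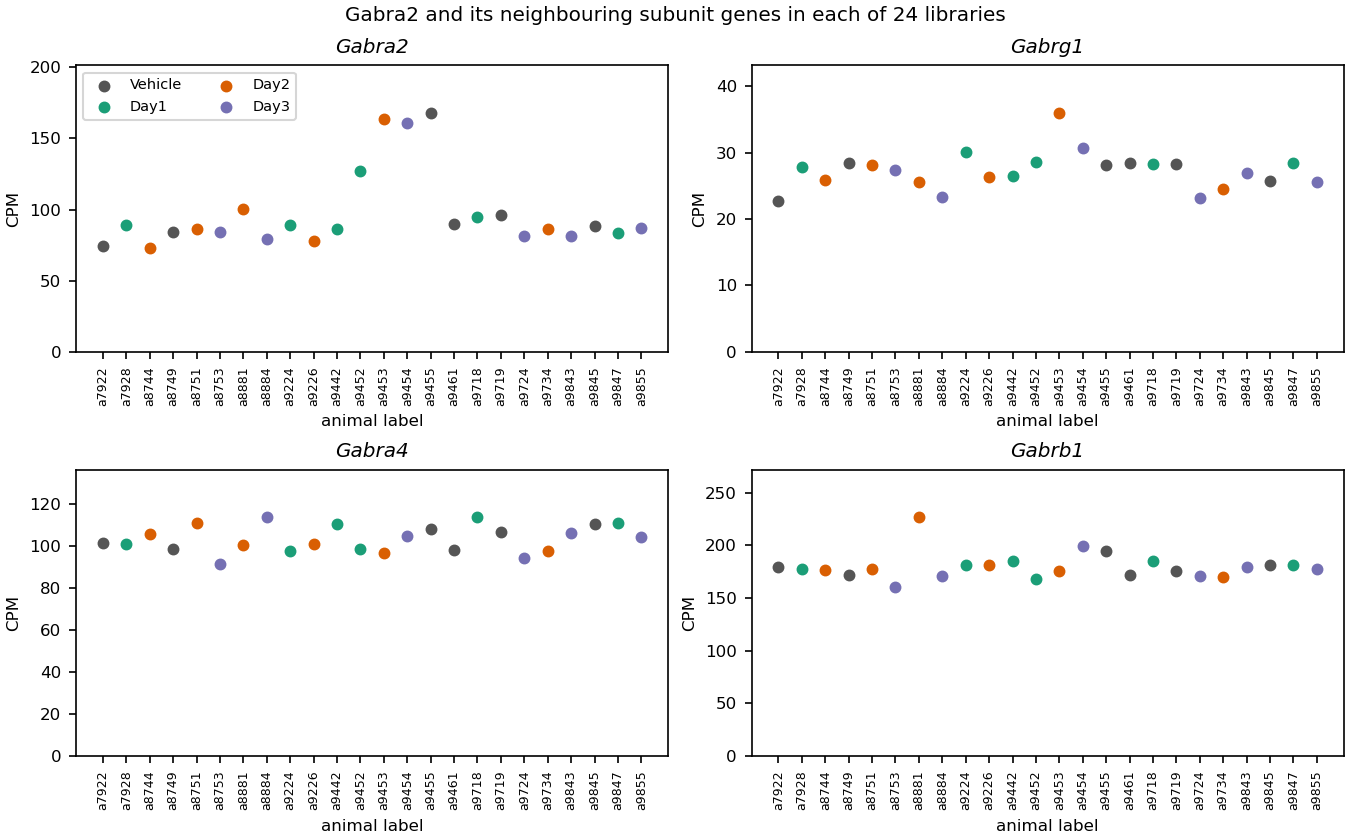
CPM (y axis) of Gabra2, Gabrg1, Gabra4 and Gabrb1 in each of the 24 libraries, ordered by animal label (x axis) and coloured by group, 1 point per library. The 4 animals a9452 to a9455 stand at 127 to 168 CPM for Gabra2 against 72.9 to 100 for the others, and the other 3 genes show no such step.

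The beta subunits are needed for assembly and hold part of the GABA binding site. Gabrb1 ran from 172 to 195 CPM in vehicle (median 178), 168 to 185 on day 1 (181), 170 to 227 on day 2 (177) and 160 to 200 on day 3 (174). Gabrb2 ran from 141 to 171 in vehicle (165), 143 to 189 on day 1 (173), 153 to 197 on day 2 (166) and 137 to 176 on day 3 (160). Both genes overlapped between all groups. The log2 fold change of Gabrb2 was 0.06 ± 0.06 (-0.06 to 0.18, adjusted p 0.900) on day 1, 0.05 ± 0.06 (-0.08 to 0.17, 0.991) on day 2 and -0.04 ± 0.06 (-0.16 to 0.08, 0.999) on day 3. Without the 8 Ttr-rich libraries the day 1 value of Gabrb2 was 0.16 with an adjusted p of 0.351. For Gabrb1 on day 3 it was -0.04 ± 0.05 (-0.15 to 0.07, adjusted p 0.999).

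Gabrd, the delta subunit of extrasynaptic receptors, had the smallest p of the 27 genes. It ran from 46.0 to 57.1 CPM in vehicle (median 53.6), 42.1 to 49.9 on day 1 (43.9), 37.6 to 54.6 on day 2 (48.5) and 47.1 to 57.6 on day 3 (50.2). Of the 6 libraries of day 1, 1 lay above the lowest vehicle library and 5 below it. The mean was 52.6 ± 3.83 CPM (SD, n = 6) in vehicle and 44.7 ± 2.94 on day 1. The log2 fold change was -0.23 ± 0.07 on day 1 (95% interval -0.37 to -0.08, unadjusted p 0.00371), -0.14 ± 0.07 on day 2 (-0.29 to 0.00, unadjusted p 0.0577) and -0.04 ± 0.07 on day 3 (-0.18 to 0.11, unadjusted p 0.614). After adjustment over all genes by edgeR the p-values were 0.341, 0.956 and 0.999, so the gene did not pass on any day.

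Day 3 lay above day 1 for Gabrd by 0.19 ± 0.07 (95% interval 0.04 to 0.33, adjusted p 0.362), which did not pass either. The joint test of the 3 days gave an unadjusted p of 0.0151 and an adjusted p of 0.456. The day 1 value stayed between -0.26 and -0.20 when single libraries were left out and was -0.26 ± 0.08 without animals a9452 to a9455 (adjusted p 0.22). It passed the threshold only when all genes with at least 1 read were kept, at -0.22 with an adjusted p of 0.0189. Over the other alternatives and left-out libraries the adjusted p reached 0.596. On day 2 the value without the Ttr-rich libraries was -0.24, with an adjusted p of 0.49.

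Gabrd is abundant in the dentate gyrus, a part of the hippocampal formation, so hippocampal markers were read beside it. The summed level of 6 such markers was 53.3 to 84.6 CPM in vehicle, 49.7 to 68.7 on day 1, 47.4 to 82.9 on day 2 and 52.6 to 89.4 on day 3. Between days 3 and 1, the contrast in which Gabrd was at 0.19, 5 of the 6 markers lay above 0, with a median of 0.42. Of these, C1ql2 (0.57 ± 0.16, adjusted p 0.116) and Spink8 (0.70 ± 0.25, adjusted p 0.324) had unadjusted p-values under 0.05, and none passed the test. Between day 1 and vehicle, 4 of the 6 lay above 0, with a median of 0.05. On day 2, where Gabrd was at -0.14 against vehicle, 1 of the 6 lay above 0, with a median of -0.10. On day 3 it was 5 of the 6, with a median of 0.03. Against vehicle 1, 1 and 2 of the 6 markers had an unadjusted p under 0.05 on days 1, 2 and 3, and none passed. Beyond the relation given next, their part in the Gabrd values was not tested. Across the 24 libraries the mean log2 level of these markers and that of Gabrd had Pearson's r 0.07 (permutation p 0.76) and Spearman's rho 0.09 (p 0.67). Without the 2 libraries farthest from the median r was 0.05. Once group and sex were fitted it was -0.37. This was 1 of 4 relations computed, and its p-value adjusted over them was 0.76.

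Gamma subunits contribute to the benzodiazepine site of many GABA-A receptors, and many receptors that contain a gamma subunit gather at synapses. Gabrg1, which is also expressed in glia, ran from 22.8 to 28.5 CPM in vehicle (median 28.3), 26.5 to 30.1 on day 1 (28.4), 24.6 to 36.0 on day 2 (26.2) and 23.2 to 30.7 on day 3 (26.3). Gabrg3 ran from 25.2 to 32.3 in vehicle (28.9), 27.3 to 33.6 on day 1 (29.4), 25.4 to 32 on day 2 (28.5) and 23.4 to 30.5 on day 3 (28.5). Their log2 fold changes lay between -0.05 and 0.06, with standard errors of 0.08 for Gabrg1 and 0.07 for Gabrg3. Gabrg1 had no relation to 8 astrocyte markers across libraries that could be told from 0 (r -0.12, permutation p 0.59, adjusted over 4 relations 0.76).

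The epsilon and theta subunits, best known from hypothalamus and brainstem, were the least abundant members. Gabre ran from 0.226 to 0.817 CPM in vehicle (median 0.370), 0.0519 to 1.40 on day 1 (0.210), 0.164 to 0.792 on day 2 (0.277) and 0.143 to 0.545 on day 3 (0.326), from 1 to 26 counts per library. Its log2 fold change was -0.35 ± 0.57 (-1.52 to 0.82, adjusted p 0.991) on day 2 and -0.50 ± 0.57 (-1.68 to 0.67, adjusted p 0.999) on day 3. Gabrq ran from 0.962 to 3.5 CPM in vehicle (2.15), 1.04 to 3.34 on day 1 (1.98), 1.15 to 3.64 on day 2 (2.44) and 1.40 to 2.57 on day 3 (2.19). The 95% interval of the log2 fold change of Gabrq was -0.61 to 0.49 on day 1, -0.33 to 0.76 on day 2 and -0.56 to 0.55 on day 3. These intervals leave room for changes past 1.2-fold in either direction for both genes.

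The GABA-B receptor forms when the ligand-binding subunit, from Gabbr1, pairs with the G-protein-coupling subunit, from Gabbr2. Both were among the steadiest genes of the list. Gabbr1 ran from 781 to 819 CPM in vehicle (median 797), 765 to 810 on day 1 (797), 763 to 836 on day 2 (799) and 782 to 844 on day 3 (789), a coefficient of variation of 2.58% over 24 libraries. Gabbr2 ran from 480 to 537 in vehicle (504), 492 to 536 on day 1 (517), 502 to 569 on day 2 (513) and 476 to 520 on day 3 (509). Log2 fold changes of Gabbr1 were -0.01, 0.00 and 0.00, each ± 0.03, with no interval reaching beyond -0.07 or 0.06. For Gabbr2 they were 0.03 (-0.05 to 0.10, adjusted p 0.940), 0.04 (-0.04 to 0.12, 0.990) and -0.01 (-0.09 to 0.06, 0.999), each ± 0.04.

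Gephyrin is the scaffold that tethers GABA-A receptors at the synapse. Gphn ran from 56.5 to 66.2 CPM in vehicle (median 60.0), 53.7 to 63.4 on day 1 (58.8), 56.0 to 61.5 on day 2 (58.4) and 56.2 to 59.6 on day 3 (58.7). All 4 groups overlapped. Its log2 fold change was -0.03, -0.04 and -0.04 on days 1, 2 and 3, each ± 0.04, and the gene did not pass the test.

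Nlgn2 encodes the neuroligin of inhibitory synapses, and Nlgn3 a neuroligin found at both kinds of synapse. Nlgn2 ran from 404 to 434 CPM in vehicle (median 422), 387 to 415 on day 1 (405), 392 to 467 on day 2 (416) and 409 to 451 on day 3 (426). Nlgn3 ran from 54.9 to 64.3 in vehicle (58.3), 54.0 to 59.1 on day 1 (56.5), 52.4 to 60.6 on day 2 (57.2) and 53.9 to 61.6 on day 3 (58.6). Lhfpl4 and Shisa7 encode membrane proteins that sit with GABA-A receptors. Lhfpl4 ran from 164 to 180 CPM in vehicle (173), 160 to 173 on day 1 (167), 164 to 181 on day 2 (175) and 163 to 184 on day 3 (176). Shisa7 ran from 165 to 182 in vehicle (177), 170 to 195 on day 1 (179), 156 to 200 on day 2 (177) and 161 to 194 on day 3 (182). The log2 fold changes of these 4 genes against vehicle lay between -0.06 and 0.03 on every day.

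Iqsec3, an exchange factor that binds gephyrin, and Slitrk3, an adhesion protein of inhibitory synapses, had unadjusted p-values under 0.05 on day 1, in opposite directions. Iqsec3 ran from 221 to 274 CPM in vehicle (median 260), 208 to 248 on day 1 (240), 228 to 277 on day 2 (235) and 227 to 253 on day 3 (233). Its log2 fold change was -0.13 ± 0.06 (-0.25 to -0.01, adjusted p 0.594), -0.07 ± 0.06 (-0.19 to 0.04, 0.990) and -0.11 ± 0.06 (-0.22 to 0.01, 0.959) on days 1, 2 and 3. Slitrk3 ran from 63.5 to 75.8 CPM in vehicle (69.6), 66.8 to 81.1 on day 1 (76.1), 67.0 to 77.4 on day 2 (71.4) and 66.3 to 75.1 on day 3 (70.6). Its day 1 value was 0.11 ± 0.05 (0.01 to 0.22, adjusted p 0.609). Vehicle and day 1 overlapped for both genes, and neither passed the test. Without animals a9452 to a9455 the adjusted p-values were 0.331 for Iqsec3 and 0.201 for Slitrk3.

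**Figure D4:**
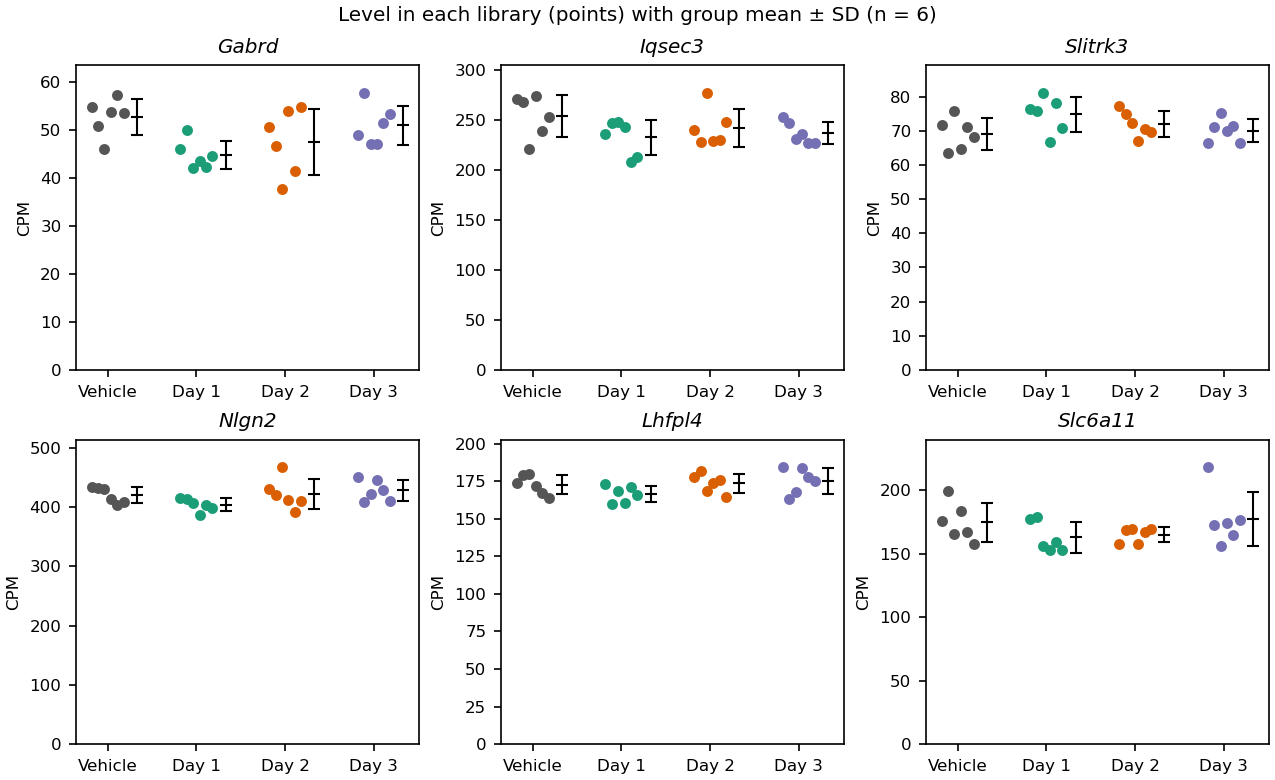
CPM (y axis, from 0) of Gabrd, Iqsec3, Slitrk3, Nlgn2, Lhfpl4 and Slc6a11 in each library (points) by group (x axis), with the group mean ± SD (n = 6). Gabrd on day 1 sits at 42.1 to 49.9 below most of the vehicle libraries at 46.0 to 57.1, and all groups overlap for every gene shown.

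Dystrophin and dystroglycan form a complex at a subset of inhibitory synapses and at astrocyte endfeet. Dmd, the dystrophin gene, ran from 64.9 to 75.5 CPM in vehicle (median 69.5), 71.4 to 77.4 on day 1 (72.5), 64.6 to 83.4 on day 2 (69.4) and 65.8 to 77.8 on day 3 (69.5). Dag1 ran from 127 to 139 in vehicle (133), 126 to 140 on day 1 (131), 127 to 139 on day 2 (133) and 130 to 144 on day 3 (136). The log2 fold change of Dmd was 0.05 ± 0.05 (-0.05 to 0.16, adjusted p 0.886) on day 1 and 0.01 ± 0.05 (-0.10 to 0.11, 0.997) on day 2, and that of Dag1 on day 3 was 0.04 ± 0.04 (-0.04 to 0.11, 0.999). Counts per gene do not separate the long and short dystrophin isoforms.

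The members that clear GABA include Slc6a11, the astrocyte transporter GAT-3, and Slc6a13, the transporter GAT-2 of the leptomeninges. Slc6a11 ran from 158 to 200 CPM in vehicle (median 171), 153 to 179 on day 1 (157), 157 to 170 on day 2 (168) and 156 to 218 on day 3 (173). Slc6a13 ran from 10.4 to 23.5 in vehicle (15.2), 15.1 to 24.9 on day 1 (16.0), 10.3 to 24.1 on day 2 (14.9) and 13.8 to 22.7 on day 3 (18.2). Slc6a13 thus varied 2.42-fold between libraries, with a coefficient of variation of 23.4%, and each group held high and low libraries. Its log2 fold change was 0.18 ± 0.17 (-0.17 to 0.53, adjusted p 0.895), 0.07 ± 0.17 (-0.28 to 0.43, 0.993) and 0.23 ± 0.17 (-0.12 to 0.58, 0.999) on days 1, 2 and 3. For Slc6a11 it was -0.08 ± 0.06 (-0.20 to 0.03, adjusted p 0.820) on day 1 and -0.06 ± 0.06 (-0.18 to 0.05, 0.990) on day 2.

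Abat and Aldh5a1 encode the mitochondrial enzymes that convert GABA to succinate. Abat ran from 306 to 327 CPM in vehicle (median 318), 288 to 321 on day 1 (313), 281 to 330 on day 2 (306) and 303 to 326 on day 3 (315). Aldh5a1 ran from 72.8 to 82.2 in vehicle (79.5), 71.6 to 88.6 on day 1 (81.5), 75.1 to 78.4 on day 2 (77.4) and 72.4 to 81.3 on day 3 (77.3). Their log2 fold changes lay between -0.04 and 0.04, each ± 0.04. Of the exon bases of Aldh5a1, 17.7% overlap antisense transcripts, which cannot be told apart without the strand setting of the counting.

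Both transporters moved with the marker genes of the cells in which they are known to be expressed. Slc6a13 and the mean log2 level of 10 leptomeningeal fibroblast markers had Pearson's r 0.85 across the 24 libraries (permutation p 1e-05, the smallest the permutations can give, adjusted 4e-05) and Spearman's rho 0.76 (p 4e-05, adjusted 0.00016). The value was 0.79 without the 2 libraries farthest from the median, 0.87 with group and sex fitted, and 0.79 within the 6 libraries whose animal labels begin with a94. Slc6a11 and the mean log2 level of 8 astrocyte markers had r 0.80 (p 2e-05, adjusted 4e-05) and rho 0.73 (p 0.00011, adjusted 0.00022). It was 0.68 without the 2 farthest libraries, 0.79 with group and sex fitted and 0.57 within the 6 libraries of the a94 labels.

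The marker levels themselves gave the scale of that variation. The summed level of the 10 leptomeningeal markers was 122 to 180 CPM in vehicle, 117 to 212 on day 1, 127 to 190 on day 2 and 134 to 176 on day 3. The 8 astrocyte markers summed to 4140 to 4990, 4140 to 4890, 4370 to 4810 and 4420 to 5050 CPM. Slc6a13 was at 14.6 to 22.7 CPM in the 8 libraries rich in Ttr and at 10.3 to 24.9 CPM in the other 16, with overlap. Its relation to choroid plexus transcripts was not tested. How much meningeal or astrocyte tissue each dissection held was not measured, and its part in the transporter levels was not tested.

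**Figure D5:**
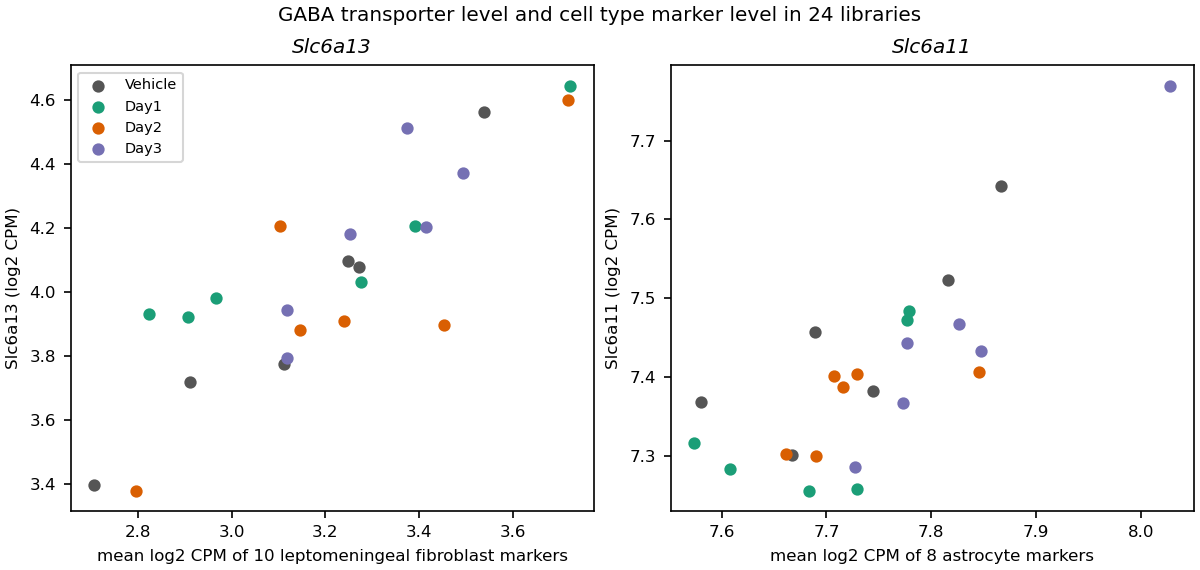
Log2 CPM (y axes) of Slc6a13 against the mean log2 CPM of 10 leptomeningeal fibroblast markers and of Slc6a11 against that of 8 astrocyte markers (x axes), 1 point per library, coloured by group. Both clouds rise from left to right, with r 0.85 and 0.80 over 24 libraries, and the colours are mixed along them.

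Days were also set against each other. No member passed between day 1 and day 2, where 0.0119% of all genes were called, between day 2 and day 3 (0.131% of all genes) or between day 1 and day 3 (0.65%). The CPM ranges of 2 days did not lie apart for any member, as they did for 0.167%, 0.322% and 0.829% of all genes. At an unadjusted p under 0.05 there were 0 members between days 1 and 2, 0 between days 2 and 3, and 3 between days 1 and 3, beside 4.25%, 4.94% and 8.39% of all genes. Those 3 were Gabrd, Nlgn2 (day 3 above day 1 by 0.08 ± 0.04, 95% interval 0.01 to 0.16, adjusted p 0.541) and Slc6a11 (0.12 ± 0.06, 0.01 to 0.24, adjusted p 0.553). These contrasts share the day 1 libraries with the comparison with vehicle, in which all 3 genes had negative day 1 values of -0.23, -0.06 and -0.08.

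The joint test of the 3 days called 0 members and 0.644% of all genes, with 1 member, Gabrd, and 7.07% of all genes at an unadjusted p under 0.05. A test of whether the day effect differed between females and males called 0 members and 0% of all genes, with 0 members and 3.49% of all genes at an unadjusted p under 0.05. Between males and females over all groups 0 members were called, with 0.0716% of all genes, and 2 members had an unadjusted p under 0.05, as had 7% of all genes. Gabrb2 was higher in males by 0.12 ± 0.04 (0.03 to 0.20, adjusted p 0.625), and Slc6a11 was lower in males at -0.11 ± 0.04 (-0.20 to -0.03, adjusted p 0.625). The X-linked members Gabra3, Gabre, Gabrq, Nlgn3 and Dmd had sex differences of 0.01 ± 0.04, -0.22 ± 0.42, -0.28 ± 0.19, 0.00 ± 0.03 and 0.05 ± 0.04.

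The other genes of the pathway were read from lists. Of 6 genes that make and package GABA, 0 passed on any day, beside 0.0656%, 0.0656% and 0.614% of all genes called. On each day 2 of them had an unadjusted p under 0.05, beside 7.25%, 5.2% and 5.64% of all genes. Above 0 lay 0, 1 and 0 of the 6, with a median log2 fold change of -0.07, -0.06 and -0.08. Gad1, which makes GABA from glutamate, was at -0.12 ± 0.04, -0.11 ± 0.04 and -0.10 ± 0.04 on days 1, 2 and 3 (adjusted p 0.272, 0.733 and 0.577). Slc32a1, the vesicular GABA transporter, was at -0.15 ± 0.05, -0.15 ± 0.05 and -0.08 ± 0.05 (adjusted p 0.381, 0.749 and 0.988). Both are interneuron genes. The 10 interneuron markers, which include these 2, summed to 1530 to 1670 CPM in vehicle, 1440 to 1590 on day 1, 1460 to 1550 on day 2 and 1420 to 1620 on day 3. None of the 10 passed, and 3, 4 and 3 had an unadjusted p under 0.05, beside the same shares of all genes. Above 0 lay 1, 2 and 0 of the 10, with a median of -0.11, -0.10 and -0.08. Sst, the somatostatin gene, was at -0.15 ± 0.05, -0.16 ± 0.05 and -0.12 ± 0.05 (adjusted p 0.390, 0.723 and 0.736). Whether these levels have a part in those of the receptor genes was not tested.

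Of 20 tested genes that traffic or anchor GABA-A receptors, 0 passed on any day, beside 0.0656%, 0.0656% and 0.614% of all genes called. Above 0 lay 5, 9 and 7 of the 20, beside 50.6%, 50.3% and 49% of all genes. At an unadjusted p under 0.05 there were 3, 1 and 0, beside 7.25%, 5.2% and 5.64% of all genes. Trak1, a motor adaptor, was at -0.15 ± 0.05 on day 1 (adjusted p 0.337), and Plcl1, which binds the receptor and its phosphatase, at 0.16 ± 0.05 (adjusted p 0.390). Among 8 partners of the GABA-B receptor 0 passed, and 2, 1 and 1 had an unadjusted p under 0.05 on days 1, 2 and 3. Above 0 lay 3, 4 and 4 of the 8. Kcnj9, a subunit of the potassium channel that the receptor opens, was at -0.10 ± 0.04 on days 1 and 2 (adjusted p 0.565 and 0.886), and Ajap1 was at -0.14 ± 0.06 on day 1 (adjusted p 0.543). Among 9 partners of dystrophin 0 passed, and 2, 1 and 1 had an unadjusted p under 0.05. Above 0 lay 1, 3 and 3 of the 9. The syntrophin gene Sntb2 was at -0.27 ± 0.08, -0.22 ± 0.08 and -0.19 ± 0.08 on days 1, 2 and 3 (adjusted p 0.299, 0.790 and 0.788).

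The last list held the rho and pi receptor subunits and further genes of GABA uptake and breakdown. Gabrr1, Gabrr2, Gabrr3 and Gabrp did not pass the filter on low counts. The 2 tested genes did not pass on any day. Slc6a12, a betaine and GABA transporter that lies next to Slc6a13, was at 0.53 ± 0.26 on day 1 (adjusted p 0.692), 0.25 ± 0.27 on day 2 and 0.23 ± 0.27 on day 3. Aldh9a1, an aldehyde dehydrogenase, was at 0.09 ± 0.07, 0.04 ± 0.07 and 0.11 ± 0.07.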

How the data were processed

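The deposited table holds whole-number read counts per gene for 24 libraries, not normalized by the authors. Per the submitters' processing notes, fastp 0.23.1, STAR 2.7.9a, DESeq2 1.32.0 and the mm39 build were named. Not given in the sources used here are the counting program, the annotation release and the strand setting. Groups came from the treatment label, and file columns were matched to animal labels. Animal numbers differ between all libraries, but separate animals are not stated as such, so p-values measure the spread between these libraries.

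Genes were tested on the counts with edgeR 4.0.16 (TMM factors, the quasi-likelihood test, filterByExpr with a minimum count of 10 and a minimum total of 15, group and sex as terms, all 24 libraries) in R 4.3.3. P-values were adjusted by Benjamini-Hochberg over the 16767 genes kept (43 without a symbol), with a threshold of 0.05, and log2 fold changes carry the SE of the fit. The biological coefficient of variation was 8.51%. CPM values use TMM-scaled totals. Log2 levels used in relations add a prior count of 2, and relations were tested with 100000 permutations. Lengths are merged exons of GENCODE vM21 (GRCm38), another build than that of the files, so no coordinates are given. Of the 60 replicate pairs none agreed within sampling noise (chi-square per degree of freedom 3.71 to 12.6).

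The members and lists were chosen with earlier results of these data known. Values by group are given for every member except 1, which, like 2 genes of other lists, is not reported here by name and is held only in the counts over the members. Fold changes with intervals are given for members called, or with the smallest p or largest fold change of their role on a day. From each list of pathway genes the called genes, or else the 2 with the smallest p, are named. DESeq2 1.42.0, limma 3.58.1 (voom), other factors, other filters, no sex term, the compared groups alone, the animal number series (the letter and leading digits of the animal label) as a factor, and leaving out libraries were alternatives. The fitting steps were tested on simulated data, with changes put in on days 1 and 3 and none on day 2. On each of days 1 and 3 the test recovered 36% of the 1.2-fold and 64% of the 1.5-fold changes. The same genes were changed by the same folds on both days, so the days are not independent results. The simulation called 141 genes on day 1 and 151 on day 3, against 11 and 103 in the data. It held no differences by sex or animal series. The recovered shares therefore do not give the power of the tests on the data. Of the simulated calls, 4.96% were false on day 1 and 7.95% on day 3, and 0 genes were called on day 2.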

Additional observations from a re-analysis of the deposited data

Results flagged for a closer look

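Over 108 sets of 6 libraries (27 genes in 4 groups), 11 held a library whose gap to the nearest other exceeded Dixon's 95% limit of 0.625 of the range, in 8 genes, and chance gives about 1 set in 20. Gabra2 was set apart in every group, at 168 CPM in vehicle library 3 (next 96.1), 127 in day 1 library 4 (95), 164 in day 2 library 5 (100) and 161 in day 3 library 3 (87.4), the animals a9455, a9452, a9453 and a9454. The same day 2 library was highest for Gabrg1 (36.0, next 28.2), and the same day 3 library for Gabra3 (182, next 162).

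Day 2 library 3 (animal a8881) was set apart for Gabrb1 (227 CPM, next 181), Gabbr2 (569, next 526) and Dmd (83.4, next 71.1). It held the highest of the 24 values for 8 of the 27 genes. Slc6a13 was high in day 1 library 1 (24.9, next 18.4), which had the highest summed leptomeningeal marker level of all libraries at 212 CPM. Slc6a11 was high in day 3 library 1 (218, next 177). What set these libraries apart was not tested.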

How the results depend on the processing

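The number of members called stayed at 0 in every comparison under 10 of 11 alternative settings where they could be run, and with each of the 24 libraries left out in turn (0 to 0). With no filter on low counts 1 member was called on day 1 and 1 in the joint test (Gabrd both times), and 1 in the interaction of group and sex (Gabra2, also the 1 member called between the sexes); the cause was not tested. The same setting raised the calls over all genes from 11 to 159 on day 1, 11 to 86 on day 2, 103 to 217 on day 3, 2 to 58, 22 to 79 and 109 to 295 between days 1 and 2, 2 and 3, and 1 and 3, 108 to 433 jointly, 0 to 175 for the interaction and 12 to 132 between sexes. The lowest counts over all genes were 10, 2, 49, 0, 6, 47, 59, 0 and 11 in that order, and leaving out 1 library gave 4 to 28, 7 to 12, 72 to 110, 0 to 2, 10 to 28, 44 to 117, 68 to 132, 0 to 0 and 11 to 14.

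Of 939 alternative values of the 27 fold changes chosen by the rule for members given in full, 929 moved by less than 1 SE, 9 moved further, 1 (Gabrd, above) passed the threshold, and 21 had another sign, with no called value reversed. Over all 81 fold changes of the members on the 3 days, 157 of 2826 alternative values had another sign. Gabre had no value under 3 alternatives: at least 1 CPM in 6 libraries, only the groups compared, and without animals a9452 to a9455 (chosen after seeing the data). Counts of 1 to 26 limit Gabre, and 17 to 69 Gabrq. The labels give no replicate number that pairs libraries across groups. With the animal number series, which groups share, as a factor, 0 members were called in each comparison, and 31 genes in all on day 1.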
